A study of Mus musculus with 6 samples.

Results

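The core pluripotency factors described here are 8 genes known as markers of undifferentiated cells of the early embryo: Pou5f1 (the gene of Oct4), Nanog, Sox2, Utf1, Sall4, Dppa2, Dppa4 and Tcl1. In the cells measured here Dppa2, Dppa4 and Tcl1 were dim already before treatment. Their probesets, the exon-directed probe groups of the array, were those annotated with exactly 1 gene symbol that matched a member or an older synonym of it. This gave 58 probesets of 208237, and 8 genes of 16272 with a probeset of their own. None of the 58 was reached through an older symbol (0). The gene Pou5f1 had 7 probesets, Nanog 10, Sox2 6, Utf1 4, Sall4 10, Dppa2 9, Dppa4 7 and Tcl1 5.

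P19 is an established line of mouse embryonal carcinoma cells, and all samples came from this 1 line. Undifferentiated cells (Day 0, untreated), neuronal cells (Day 7) and early glial cells (Day 10) were measured on the GeneChip Mouse Exon 1.0 ST Array, with 2 biological duplicates a day and 6 arrays in all. Cells of Day 7 and Day 10 had been aggregated for 4 days with 1 µM retinoic acid (RA), and those of Day 7 were then cultured for 3 more days to grow neurites. Whether duplicates came from separate cultures is not given in the sources used here, so p-values measure no more than the spread between these arrays. The test used (limma) also draws the spread of each gene toward that of all genes. For Pou5f1 and Nanog, whose duplicates lay far apart, the printed SE is smaller than their own duplicates would give.

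Oct4, a POU-domain protein, and Sox2, an HMG-box protein, bind DNA side by side at many genes of pluripotent cells, their own and Nanog among them, and with the homeodomain protein Nanog they hold such cells in the undifferentiated state. Sall4, a zinc-finger protein, and Utf1, a chromatin-bound cofactor, are expressed with them, while Dppa2 and Dppa4 are a pair of related nuclear proteins and Tcl1 is a cofactor of the kinase Akt. RA is a standard agent for ending this state in P19 cells. Sox2 differs from the others in that neural progenitors express it too.

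The duplicates were not equally close. The correlation of the gene levels across the 11390 genes tested was 0.951 on Day 0, 0.973 on Day 7 and 0.930 on Day 10, and genes more than 2-fold apart between duplicates numbered 556, 106 and 1365. Median probeset intensities of the arrays ran from 156 to 216, with Day 10 replicate 1 the lowest. Day 10 replicate 2 stood above Day 10 replicate 1 for 9199 of the 11390 genes, by a median of 0.46 on the log2 scale, and Utf1, Pou5f1 and Nanog lay far above that median, so the Day 10 intensities of each member are given per array. Between Day 7 and Day 0 the median change of all genes tested was 0.10 on the log2 scale, and between Day 10 and Day 0 it was -0.11.

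The DNA before the start of 4 members is shown because it holds, or lacks, the letters that Oct4, Sox2 and the receptors of RA recognise. Each window runs from 250 bases before to 50 bases after the gene start (RefSeq, GRCm38.p6), 5′ to 3′ on the strand of the gene. Capitals mark every match, on either strand, to the octamer ATGCAAAT or its first 7 letters ATGCAAA, the Sox core ACAATG, the nuclear receptor hexamer AGGTCA and the GC box GGGCGG. The composite of octamer-type and Sox letters described below is in capitals too, with the base between its parts. Windows were found for 5 of the 8 members.
Pou5f1, chr17:35505782-35506081, plus strand: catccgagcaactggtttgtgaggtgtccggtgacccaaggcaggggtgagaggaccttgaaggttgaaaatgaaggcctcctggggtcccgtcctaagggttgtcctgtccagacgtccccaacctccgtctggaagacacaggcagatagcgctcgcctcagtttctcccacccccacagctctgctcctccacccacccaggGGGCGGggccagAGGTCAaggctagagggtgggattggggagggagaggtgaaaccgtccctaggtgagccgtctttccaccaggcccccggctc
Nanog, chr6:122707239-122707538, plus strand: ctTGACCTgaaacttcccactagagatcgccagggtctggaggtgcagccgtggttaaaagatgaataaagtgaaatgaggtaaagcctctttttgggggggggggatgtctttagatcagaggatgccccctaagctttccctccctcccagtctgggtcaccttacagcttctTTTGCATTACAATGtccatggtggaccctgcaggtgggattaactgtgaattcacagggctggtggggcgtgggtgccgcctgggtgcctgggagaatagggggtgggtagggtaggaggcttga
Utf1, chr7:139943606-139943905, plus strand: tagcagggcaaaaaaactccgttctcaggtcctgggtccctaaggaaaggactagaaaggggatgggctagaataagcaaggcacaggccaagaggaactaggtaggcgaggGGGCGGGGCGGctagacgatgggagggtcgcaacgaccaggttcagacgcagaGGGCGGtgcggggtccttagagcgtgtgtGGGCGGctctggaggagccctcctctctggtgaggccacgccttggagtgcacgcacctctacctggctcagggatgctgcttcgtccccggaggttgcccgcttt
Sox2, chr3:34649745-34650044, plus strand: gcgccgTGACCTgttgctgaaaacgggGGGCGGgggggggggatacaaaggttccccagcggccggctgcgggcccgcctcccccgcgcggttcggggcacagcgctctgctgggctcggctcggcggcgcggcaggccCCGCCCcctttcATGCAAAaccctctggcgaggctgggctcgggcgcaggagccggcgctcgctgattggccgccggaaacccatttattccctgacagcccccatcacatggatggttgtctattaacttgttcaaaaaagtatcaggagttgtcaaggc

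The Nanog window held an octamer-type match, TTTGCAT, from -75 to -69 and the Sox core from -67 to -62, counted so that the base before the gene start is -1. Together they make the composite of TTGCAT and, after 1 base of any kind, ACAATG, from -74 to -62, which overlaps both by construction. This composite was found in 4 of 32851 windows (0.0122%), and the 4 belonged to 3 genes: Nanog, whose second, overlapping window held it from -150 to -138, and the unnamed models Gm31224 and Gm34106. The receptor hexamer stood from -248 to -243. The 7 letters were found in 4.63% of windows, the Sox core in 12.6% and the full octamer in 1.74%. The Pou5f1 window held a GC box from -45 to -40 and the receptor hexamer from -33 to -28, which 35.7% and 16.3% of all windows held. A second Pou5f1 window, at an inner start (chr17:35508557-35508856), held the Sox core from -158 to -153. Utf1 had 4 GC boxes from -138 to -51, the leading 2 of which share a base, and none of the other letters searched. Sox2 had the receptor hexamer from -244 to -239, 2 GC boxes and the 7 letters ATGCAAA from -99 to -93. Tcl1 (chr12:105222688-105222987, minus strand) had 2 GC boxes from -64 to -49. These are matches of letters and not measured sites. DNA outside the windows was not searched, so a window without a match does not mean that the gene lacks such sites.

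**Figure D1:**
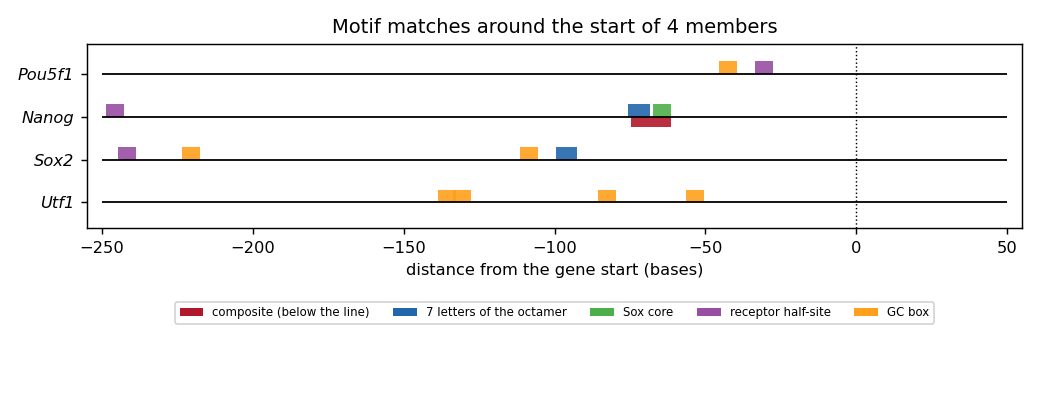
Positions of the motif matches in the promoter windows of Pou5f1, Nanog, Sox2 and Utf1, with the distance from the gene start in bases on the horizontal axis and 1 line per gene. Coloured boxes are matches, and the composite of octamer-type and Sox letters is drawn below the line. The composite stands in the Nanog line from -74 to -62 and in no other line drawn.

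On Day 7, 3 of the 6 members that could be tested were lower than on Day 0: Utf1, Pou5f1 and Sall4. None was higher (0 of 6 by limma, and 0 at an unadjusted p under 0.05). Among all genes tested, 4.52% were called lower and 11.2% higher. A call needed a Benjamini-Hochberg adjusted p under 0.05 in limma and a fold of at least 2, and the gene level was the median over probesets of log2(intensity + 16). The split of all calls moved with the scaling: 1279 genes were called higher and 515 lower with the deposited scaling, 1022 and 724 after quantile normalization, and 935 and 988 with arrays centred on their median. The same 3 members were called lower under all of these scalings. The median change of the 6 tested members was -2.46.

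Pou5f1 (chr17:35506032-35510777 in GRCm38.p6) had median intensities of 4287 and 5935 on Day 0, 196 and 642 on Day 7, and 320 and 2301 on Day 10. Both Day 0 arrays were above all the later ones, and Day 10 replicate 2 was the highest of those later arrays. Its log2 level fell by 3.76 from Day 0 to Day 7 (SE 0.69, n = 2 a day; adjusted p = 0.00175 by limma), a 13.5-fold difference. In bulk RNA, fewer cells of a type and less RNA per cell cannot be told apart, here or for the genes that follow.

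Utf1 (chr7:139943856-139945112) showed the largest fall of the members. Its intensities were 3259 and 3609 on Day 0, 22.6 and 46.9 on Day 7, and 75.0 and 812 on Day 10. The Day 7 arrays were at 0.66% and 1.37% of the Day 0 mean, far below both Day 0 arrays, and Day 10 replicate 1, at 2.18%, was close to them. The log2 level fell by 6.13 (SE 0.69, adjusted p = 3e-05 by limma), and since the offset of 16 is close to the Day 7 intensities, this value understates the change.

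Sall4 (chr2:168748332-168767201) measured 2329 and 2154 on Day 0, 125 and 319 on Day 7, and 215 and 542 on Day 10. Its Day 0 duplicates were the closest among these 3 genes, and both later days lay below them. The log2 level fell by 3.38 on Day 7 (SE 0.45, adjusted p = 0.000139 by limma).

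Nanog (chr6:122707489-122714633) was lower on both Day 7 arrays than on both Day 0 arrays, but did not pass the test. Its intensities were 827 and 1413 on Day 0, 217 and 589 on Day 7, and 155 and 972 on Day 10. The Day 10 arrays lay far apart, with replicate 1 the lowest of the 6 and replicate 2 between the Day 0 arrays. The log2 difference of Day 7 against Day 0 was -1.55 (SE 0.64, 95% interval -2.92 to -0.17), with an adjusted p of 0.125 by limma. Without Day 7 replicate 2 the difference was -2.23, and without Day 7 replicate 1 it was -0.86. Without Day 0 replicate 1 it was -1.93, and without Day 0 replicate 2 it was -1.17. With only the Day 0 and Day 7 arrays in the fit it was called at the unchanged -1.55 (adjusted p = 0.0367 by limma). The difference itself does not use the Day 10 arrays, but the shared spread does. With fewer arrays the fit also leans more on the spread of all genes.

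Sox2 (chr3:34649995-34652461) did not follow these genes. It measured 1254 and 2127 on Day 0, 1362 and 1199 on Day 7, and 965 and 2100 on Day 10, so that the days overlapped. The log2 difference of Day 7 against Day 0 was -0.35 (SE 0.39, adjusted p = 0.636 by limma), with an interval from -1.19 to 0.49, which includes more than a 2-fold fall. Tcl1 (chr12:105216753-105222737) was flat and dim, with intensities of 82.9 and 51.7 on Day 0, 67.9 and 66.2 on Day 7, and 80.1 and 70.5 on Day 10. Its log2 difference was 0.02 (SE 0.31, interval -0.65 to 0.69, adjusted p = 0.978 by limma).

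Dppa2 and Dppa4, which lie side by side on chromosome 16 (48310274-48319513 and 48283735-48294292), were under the level filter, the 30th percentile of the mean gene level, and were not tested. Dppa2 measured 77.2 and 81.4 on Day 0, 47.7 and 24.9 on Day 7, and 12.8 and 95.3 on Day 10. Dppa4 measured 52.6 and 127, then 17.8 and 41.5, then 32.2 and 119. In both genes the Day 7 arrays lay below the Day 0 arrays, and Day 10 replicate 2 was in or above the Day 0 range. Their log2 differences of Day 7 against Day 0 were -0.90 (SE 0.51) and -1.17 (SE 0.50), and with no filter their adjusted p-values by limma were 0.348 and 0.184.

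**Figure D2:**
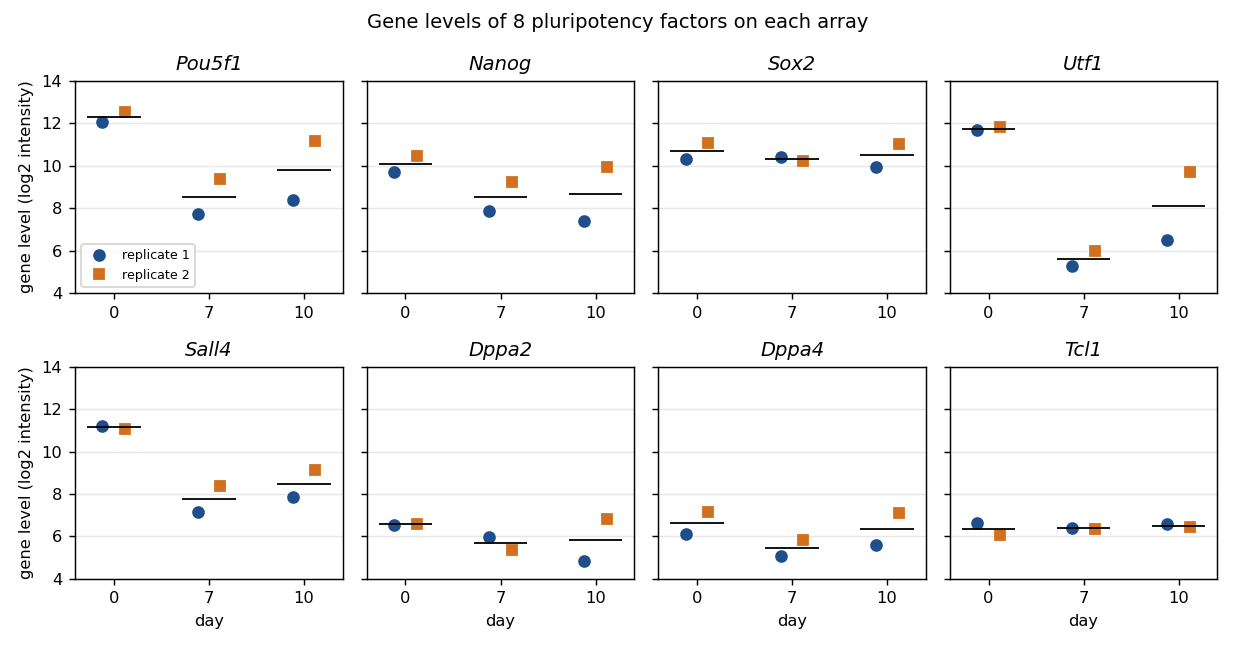
Gene level of each member, as the median over its probesets of log2(intensity + 16), on the vertical axis against the day, with a circle for replicate 1, a square for replicate 2 and a bar at the mean of the 2. Pou5f1, Utf1 and Sall4 dropped after Day 0, Sox2 and Tcl1 stayed within the Day 0 range or near it, and the Day 10 squares of Pou5f1, Nanog and Utf1 stand well above the circles.

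On Day 10 the same 3 members were lower than on Day 0, again 3 of 6 tested, with none higher (0 by limma, and 0 at an unadjusted p under 0.05). Of all genes tested, 7.43% were called lower and 7.27% higher. The log2 change was -3.65 for Utf1 (SE 0.69, adjusted p = 0.00314 by limma), -2.65 for Sall4 (SE 0.45, adjusted p = 0.00148) and -2.52 for Pou5f1 (SE 0.69, adjusted p = 0.0252). The duplicates differed in size though not in direction: from the Day 0 replicate of the same number, chosen only to show the spread, Pou5f1 changed by -3.68 and -1.36, Utf1 by -5.17 and -2.13, and Sall4 by -3.35 and -1.96. Without Day 10 replicate 2 the log2 differences were -3.91 for Pou5f1, -5.24 for Utf1 and -3.29 for Sall4. Without Day 10 replicate 1 they were -1.13, -2.06 and -2.02, and Pou5f1 was no longer called (adjusted p = 0.26 by limma).

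Nanog differed by -1.42 between Day 10 and Day 0 (SE 0.64, adjusted p = 0.155 by limma). Its value without Day 10 replicate 2 was -2.68 and without Day 10 replicate 1 it was -0.15, so the array kept decides the value. With only the Day 0 and Day 10 arrays in the fit, the SE was 0.44 for Nanog and 0.41 for Tcl1. The Day 10 duplicates of Nanog nevertheless lay far wider apart than those of Tcl1. Fits with fewer arrays thus lean on the spread of all genes, and a call gained there is weak. Sox2 differed by -0.20 (SE 0.39, interval -1.04 to 0.65, adjusted p = 0.782) and Tcl1 by 0.16 (SE 0.31, interval -0.52 to 0.83, adjusted p = 0.783). The untested Dppa2 and Dppa4 had log2 differences of -0.75 and -0.30.

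Between Day 10 and Day 7, no member was called in either direction (0 of 6), where 0.36% of all genes were called higher and 0.334% lower. By limma, 1 member was higher and 0 were lower at an unadjusted p under 0.05. That member was Utf1, whose Day 10 arrays were both above its Day 7 arrays, with a log2 difference of 2.48 (SE 0.69, unadjusted p = 0.00296, adjusted p = 0.102 by limma). It was 0.89 without Day 10 replicate 2 and not called, and 4.07 without Day 10 replicate 1 and called (adjusted p = 0.00717); it was also called without either Day 0 array (adjusted p = 0.0298) and without Day 7 replicate 2 (2.83, adjusted p = 0.00137). Pou5f1 differed by 1.24 (SE 0.69, adjusted p = 0.386), and by -0.15 without Day 10 replicate 2. The other differences were 0.72 for Sall4, 0.13 for Nanog, 0.16 for Sox2 and 0.13 for Tcl1, with adjusted p-values from 0.437 to 0.936. The comparisons with Day 0 share the Day 0 arrays, and all comparisons share arrays with another.

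**Figure D3:**
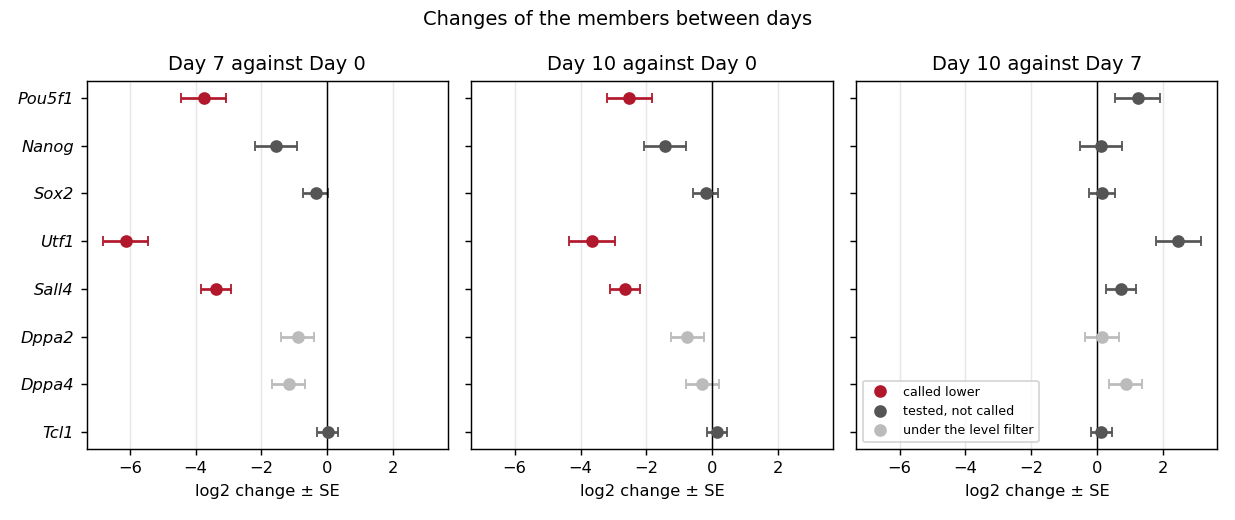
Log2 change of each member in the 3 comparisons on the horizontal axis, with bars of 1 SE from the limma fit (2 arrays a day). Utf1, Sall4 and Pou5f1 are called lower against Day 0 on both later days, with Utf1 at -6.13 and -3.65, and no member is called between Day 10 and Day 7.

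The gap between the Day 10 duplicates was among the widest of all genes for 3 members. Replicate 2 exceeded replicate 1 by 3.19 on the log2 scale for Utf1, 2.78 for Pou5f1 and 2.53 for Nanog, which placed them at ranks 5, 7 and 13 of 11390 from the top. Only 37 genes exceeded a gap of 2. In intensity, Pou5f1 was at 6.27% of its Day 0 mean in replicate 1 and 45.0% in replicate 2, Nanog at 13.9% and 86.8%, and Utf1 at 2.18% and 23.6%. Sall4 (gap 1.27, rank 446) and Sox2 (1.11, rank 884) were nearer to the bulk of genes, 5 to 95% of which lay between -0.48 and 1.22. The untested Dppa2 and Dppa4 had gaps of 1.95 and 1.49, and Tcl1 one of -0.15.

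Day 7 replicate 2 also stood above replicate 1 for several members, although the median gap of all genes that day was -0.03. The gap was 1.63 for Pou5f1 (rank 8 of 11390), 1.37 for Nanog (rank 17), 1.25 for Sall4 (rank 28) and 0.71 for Utf1 (rank 189), but -0.18 for Sox2 and -0.03 for Tcl1. On Day 0 the gaps of these first 4 genes were smaller, 0.47 for Pou5f1, 0.76 for Nanog, -0.11 for Sall4 and 0.15 for Utf1, while those of Sox2 (0.75) and Tcl1 (-0.55) were larger than on Day 7. The untested Dppa4 had gaps of 1.06 on Day 0 and 0.77 on Day 7, and Dppa2 of 0.06 and -0.64. Among the genes called lower on Day 7, the median Day 7 gap was 0.03 and 272 of 515 were positive. A call selects against wide gaps between duplicates, so this cannot show whether falling genes in general share the gap. On Day 10 the median gap of these 515 genes was 0.62, with 477 of 515 positive, against 0.46 for all genes and 0.35 for those called higher. The Day 10 gap also enters the call, through the shared spread.

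**Figure D4:**
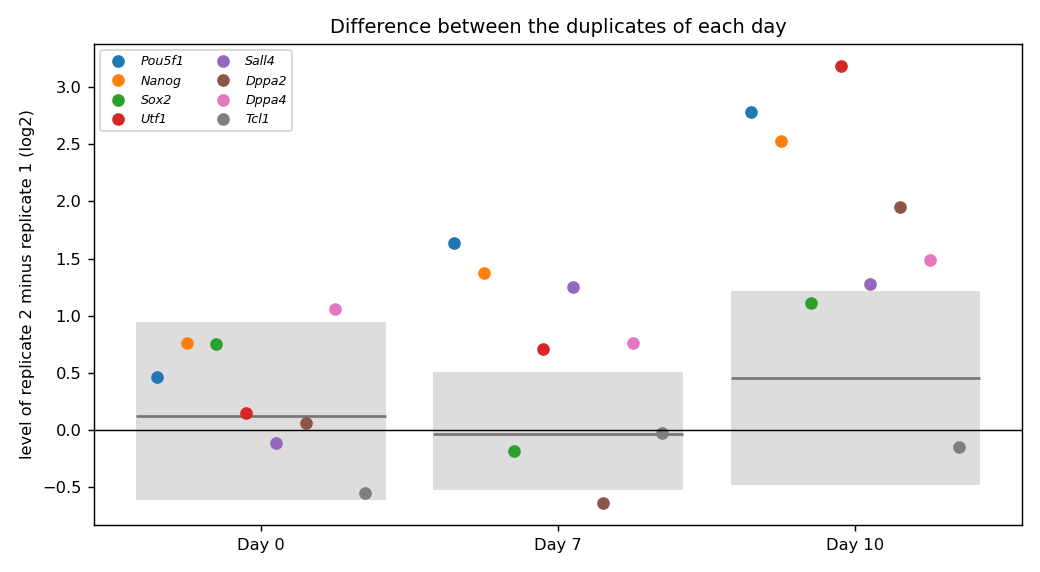
Level of replicate 2 minus replicate 1 (log2) on the vertical axis for each member, by day. The grey band runs from the 5th to the 95th percentile of the 11390 genes tested and the grey line is their median; on Day 10 Utf1, Pou5f1 and Nanog stand at 3.19, 2.78 and 2.53, above a band that ends at 1.22.

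The markers of other cells moved as follows. The glial filament gene Gfap had log2 levels of 5.65 and 5.99 on Day 0, 6.13 and 6.90 on Day 7, and 9.55 and 10.50 on Day 10, and rose by 4.21 from Day 0 to Day 10 (SE 0.38, adjusted p = 7.98e-06 by limma). The oligodendrocyte lineage gene Olig2 had levels of 7.53 and 6.90 on Day 10 against 7.27 and 6.99 on Day 0, and the glial gene S100b, which was under the level filter, 5.39 and 6.22 against 5.26 and 5.81. Of all genes tested, 11.2% were called higher on Day 7 and 7.27% on Day 10. Of 10 neuron markers, 9 were higher on Day 7 than on Day 0 and 8 on Day 10. Their summed intensity was 2672 to 3316 on Day 0 and 18437 to 20409 on Day 7, and 9773 and 7099 on Day 10 replicates 1 and 2. Of 10 mesenchyme and smooth muscle markers, 9 were higher on Day 7 and 10 on Day 10. They summed to 2075 to 2310 on Day 0, 22612 to 25842 on Day 7, and 15125 and 23787 on Day 10. Acta2 and Tagln, the brightest of them on both Day 7 arrays, weigh most in the Day 7 sums. Primitive endoderm markers summed to 3159 to 3385 on Day 0 and 4306 to 6409 later, with 3 of 8 tested higher on each later day. Sparc was the brightest of them on every array, weighs most in these sums and was not called against Day 0 (0.98 and 0.73). Pdgfra, called on both days, is also in the mesenchyme list. Gata4 (-0.84 and -0.54) and Sox7 (-0.21 and -0.31) were below Day 0 on both days, not called. Sox17 and Afp were under the level filter. Neural progenitor markers, 9 of them measured, summed to 7143 to 7177 on Day 0, 13902 to 14547 on Day 7, and 10930 and 14702 on Day 10. Fabp7, Nes and Vim rose on Day 7, Sox3 fell and 5 were not called. Vim was the brightest of the 9 on every array and weighs most in these sums. Its log2 levels were 11.88 and 11.89 on Day 0, 13.32 and 13.16 on Day 7, and 12.91 and 13.12 on Day 10. Day 10 replicate 2 thus had the lower neuron sum and the higher sums of the other lists. Replicate 2 was also higher than replicate 1 for 9199 of all 11390 genes tested that day, by a median of 0.46 on the log2 scale. The sums are not corrected for that general gap. The part of these lists in the levels of the members was not tested.

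Within a member, most probesets moved together, and probesets of 1 gene share its transcripts and are not replicates. From Day 0 to Day 7, 50 of the 58 probesets had a change below 0, and 13 were called lower over all 208237 probesets, of which 0.928% were called lower; none was called higher (0 by limma, and 0 at an unadjusted p under 0.05). The 13 were all 4 of Utf1, 7 of 10 of Sall4 and 2 of 7 of Pou5f1. The Pou5f1 probesets lay between -5.00 and -3.62, those of Utf1 between -6.38 and -5.12, and those of Sall4 between -4.98 and -1.02. All 10 Nanog probesets were below 0, from -1.90 to -0.43, whereas 3 of 6 Sox2 probesets were, from -1.10 to 0.22. The number of calls changed with the arrays kept and with the offset, and was 0 with an offset of 1. The share of all probesets called under these other settings is not given here, so the change is not a result about the members.

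Single probesets of Nanog, Sall4 and Sox2 stood apart from their gene. They are named after their values were seen. Nanog probeset 4795735 measured 790 and 724 on Day 0, 554 and 561 on Day 7, and 1093 and 850 on Day 10, and so showed neither the gap between the Day 7 duplicates nor the low Day 10 replicate 1 of the others. Nanog probeset 4463588 was at or below 53.5 on every array. In Sall4, probeset 5589487 went from 1000 and 808 on Day 0 to 371 and 510 on Day 7, the smallest fall of the 10. In Sox2, probeset 4431153 was lower on Day 7 (869 and 887) than on Day 0 (1815 and 1992), while 4449237 was at 2499 and 4052 on Day 0 and 3808 and 3591 on Day 7.

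On Day 10, 46 of the 58 probesets were below their Day 0 value and 3, all of Sall4, were called lower, with 0.681% of all probesets called. None was called higher (0), while at an unadjusted p under 0.05 by limma 22 were lower and 1 higher. The higher one was the dim Tcl1 probeset 5261148 (1.32), at 15.5 and 9.36 on Day 0 and 76.8 and 37.4 on Day 10. Every probeset of Pou5f1 (-3.82 to -2.19), Utf1 (-3.97 to -3.07) and Sall4 (-4.13 to -1.50) was below 0. Between Day 10 and Day 7, 9 of 58 were below 0 and none was called by limma (0; an unadjusted p under 0.05 was met by 3 that were higher and by 0 that were lower). On 17 of the 58 probesets at least 1 array was under the offset of 16.

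**Figure D5:**
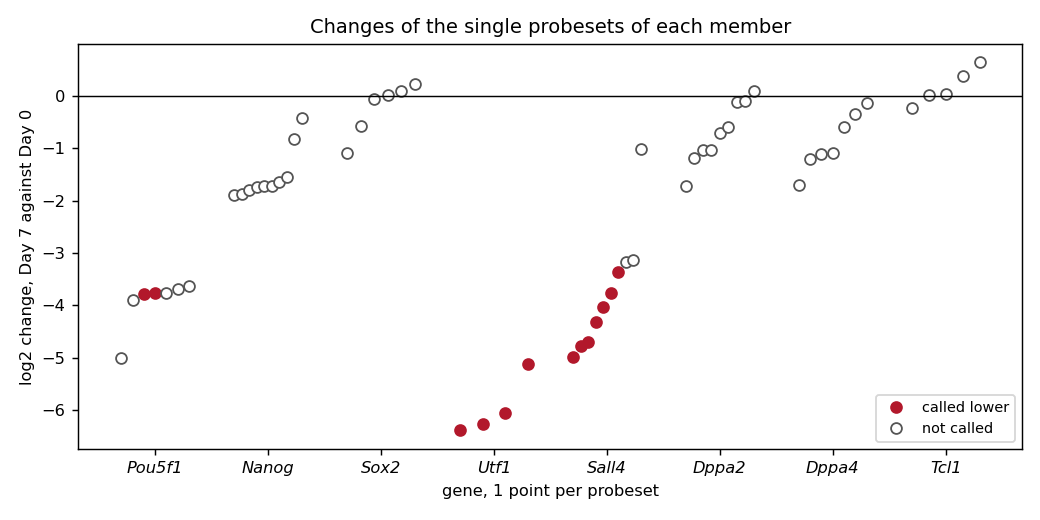
Log2 change of Day 7 against Day 0 of each probeset (vertical axis), grouped by member, with filled points for the 13 called lower. Utf1 probesets lie between -6.38 and -5.12 and those of Pou5f1 between -5.00 and -3.62, while the Sox2 points lie on both sides of 0.

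The genes whose levels ran closest to each member, by the distance over the 6 arrays after centring on the Day 0 mean, differed between members. Nearest to Pou5f1 were Epcam, an epithelial adhesion protein (distance 1.18 in log2 units), Trh, the precursor of thyrotropin-releasing hormone (1.27), and the homeodomain gene Otx2 (1.30). Otx2 was also the nearest to Sall4 (0.67), followed by Rbpms2 (0.83) and the potassium channel gene Kcnj3 (1.01). Utf1 had no close match: Gdf3, a ligand of the TGF-beta family, lay at 2.08, the DNA methyltransferase gene Dnmt3b at 2.45 and the kinase gene Pim2 at 2.56. Nearest to Nanog were Rpp25 (0.88), Rex2 (0.98) and the carbonic anhydrase gene Car2 (0.98).

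Sox2 ran with genes that changed little: the ribosomal protein gene Rpl17 (0.26), which has near-identical copies that probes may share, Pcmtd1 (0.29) and Bola2 (0.30). Tcl1 lay nearest to Btnl1 (0.06), Lpar3 (0.15) and Rab19 (0.16), all flat. Dppa2 lay nearest to Samd4 (0.56), Hps4 (0.61) and Cbr1 (0.64), and Dppa4 to Fgf5, a growth factor of the epiblast (0.51), Gaa (0.66) and Tifa (0.74).

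Of 20 other regulators of pluripotency, 17 were measured and 14 tested. For this list and those that follow, 4.52% of all genes tested were called lower and 11.2% higher on Day 7. On Day 10 these shares were 7.43% and 7.27%. On Day 7, 3 were lower and 1 higher than on Day 0, with a median of -0.30 against 0.10 for all genes. Lin28a, an RNA-binding protein that blocks let-7 maturation, fell by 4.58 (SE 0.48, adjusted p = 1.81e-05 by limma), from 12.63 and 12.48 to 7.40 and 8.56. Nr0b1, an orphan nuclear receptor, fell by 2.34 (adjusted p = 0.0264), and Rif1 fell by 1.47 (adjusted p = 0.0115). Stat3, the transducer of LIF signalling, rose by 1.60 (adjusted p = 0.00229). On Day 10, 5 regulators were lower and 3 higher, with a median of 0.01 against -0.11 for all genes. Lin28a (-4.08), Mybl2 (-1.89), Rif1 (-1.83), Zfp281 (-1.36) and Lifr (-1.21) fell, and Stat3 (1.76), Klf4 (1.38) and Il6st (1.20) rose. Between Day 10 and Day 7 none was called (0 of 14 by limma). Esrrb, Zfp42 and Nr5a2 were under the level filter.

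Of 14 genes known as targets of Oct4 with Sox2 or expressed with them in the inner cell mass, 10 were measured and 7 tested, and 3 were lower on Day 7 (median -1.47). Gdf3 fell by 4.73 (SE 0.72, adjusted p = 0.000412 by limma), Tdgf1, the co-receptor of Nodal, fell by 1.86 (adjusted p = 0.0113) and the Polycomb-associated Jarid2 fell by 1.47 (adjusted p = 0.0246). On Day 10 Gdf3 (-3.53) and Jarid2 (-1.92) were lower than on Day 0. Tdgf1 was not called there (0.48, adjusted p = 0.528 by limma). It had log2 levels of 9.05 and 9.08 on Day 0, 7.11 and 7.31 on Day 7, and 8.65 and 10.43 on Day 10, and was higher on Day 10 than on Day 7 by 2.34 (SE 0.45, adjusted p = 0.0344 by limma). Dppa3, Dppa5a and Dnmt3l were under the level filter.

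Of 12 epiblast and primitive streak genes, 10 were tested. Dnmt3b fell by 4.65 (SE 0.48, adjusted p = 1.52e-05 by limma) and Otx2 fell by 3.57 (SE 0.46, adjusted p = 9.95e-05) on Day 7, and Lhx1 rose by 1.87 (adjusted p = 0.00277), with a median of -0.12. On Day 10 Dnmt3b (-4.28), Otx2 (-2.86) and Pou3f1 (-1.70) were lower than on Day 0, and Pou3f1 was also lower than on Day 7, by -1.71 (adjusted p = 0.0239 by limma).

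Among 13 relatives of the members, 9 were tested, and 4 were lower and 2 higher on Day 7 and on Day 10. The POU genes of the nervous system Pou3f2 and Pou3f3 rose on Day 7, by 3.60 (SE 0.32, adjusted p = 4.24e-06 by limma) and 1.87 (SE 0.33, adjusted p = 0.00118), and on Day 10 by 3.34 and 2.13, whereas Pou2f1, the gene of Oct1, was lower on both days (-1.11 and -1.73). Pou3f2 measured 5.38 and 5.67 on the log2 scale on Day 0 and 8.65 to 9.28 later. Sall1 (-1.86), Sox3 (-1.49) and Sall2 (-1.40) fell on Day 7, less than Sall4 in size, although that difference between genes was not tested. Sox1, the close relative of Sox2 in neural progenitors, differed by 0.56 (SE 0.32, adjusted p = 0.285) on Day 7.

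The Day 10 duplicates of the listed genes differed to unequal degrees. In percent of the Day 0 mean, replicate 1 and replicate 2 measured 2.34 and 25.3 for Gdf3, 3.13 and 10.1 for Lin28a, 2.22 and 9.63 for Dnmt3b, 7.10 and 24.1 for Otx2, 31.6 and 199 for Nr0b1, and 74.2 and 263 for Tdgf1. Gdf3, Dnmt3b and Otx2 are also among the genes nearest to members, which were chosen on these same arrays. Little or no such gap was seen in Pou3f1 (29.2 and 25.7), Sox3 (34.1 and 36.9), Sall2 (23.0 and 31.6) and Stat3 (335 and 353). Over all genes tested, 9199 of 11390 were higher in replicate 2. Gdf3, Lin28a, Dnmt3b and Otx2 lay far below their Day 0 level on both Day 10 arrays, whereas Nr0b1 and Tdgf1 were above it in replicate 2.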

How the data were processed

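Total RNA of 6 P19 samples (3 days, 2 duplicates each) was hybridised to exon arrays. The authors deposited linear intensities, 1 for each of 228090 core probesets, which the study's methods describe as sketch-normalized and summarized with PLIER. Affymetrix Expression Console and RMA stand in the processing notes of the submitters without a version. The genome build of the array annotation is not given in the sources used here.

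Probesets with 1 gene symbol (208237) were kept; 4183 with several symbols and 15670 with none were left out. Of 16930 symbols, 14479 are current in GRCm38.p6 (RefSeq) and 2396 were updated through synonyms. The number of unmapped value columns was 0. The gene level was the median over probesets of log2(intensity + 16). Genes at or above the 30th percentile of the mean level (11390 of 16272) were tested with limma 3.58.1 in R 4.3.3, with all 6 arrays in 1 fit without a block and Benjamini-Hochberg adjustment; genes were called where the adjusted p was below 0.05 and the change reached 2-fold. Probesets were tested in the same way over the whole table. The steps were tested on simulated data. The number of arrays limits the precision.

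The members and lists were chosen with earlier results of these data known. Named were the 8 members, the 3 tested genes nearest to each, and up to 4 called genes of each list with the largest change per comparison; probesets, Gfap, Olig2, S100b, genes listed as under the filter and the further Day 10 calls of the list of other regulators were added after their values were seen. Alternatives were the offset, the summary over probesets, several symbols, the filter, the scaling, the block, the arrays in the fit, the eBayes options, the thresholds and each array left out. Motifs were searched on both strands in 32851 promoter windows with Python 3.11.15.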

Additional observations from a re-analysis of the deposited data

How the results depend on the processing

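Results were recomputed under 20 alternatives, counting each array left out, and under 1 chosen after seeing the data, which left out Day 7 replicate 2 and Day 10 replicate 2 together; where a day kept 1 array, that array was assumed to vary like the others. The calls of Utf1 and Sall4 on Day 7 and of Sall4 on Day 10 held under every alternative run. No member was called higher against Day 0 under any of them. The count of members lower on Day 10 than on Day 0 was 1 with a trended, robust eBayes, where Pou5f1 (adjusted p = 0.156 by limma) and Utf1 (0.0616) lost their calls and Pou5f1 lost that of Day 7 (0.054). Pou5f1 on Day 10 was also lost with no filter (0.054), with quantile normalization (0.0563), at an adjusted p under 0.01 (0.0252) and without Day 10 replicate 1 (0.26). Utf1 was the 1 member called higher on Day 10 than on Day 7 with the mean over probesets, the filter at the 50th percentile, the replicate block and only the arrays of the 2 days; leaving out single arrays gave 0 to 1 such members. Nanog was called lower on Day 7 with the mean over probesets (adjusted p = 0.0252 by limma) and with only the arrays of the 2 days (0.0367). On Day 10 it was called with only the arrays of the 2 days (0.0175). Fits with fewer arrays lean more on the spread of all genes than the main fit does, so calls gained there are weak. With both replicates 2 left out, its differences from Day 0 were -2.23 and -2.68. Over the 21 alternatives they ran from -2.23 to -0.86 on Day 7 and from -2.68 to -0.15 on Day 10. Nanog stayed not called in 14 of the 21 on Day 7 and in 15 on Day 10.

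Whether duplicates of the same number on different days belong together is not given in the sources used here. Their deviations correlated at -0.08 (Day 0 and Day 7), 0.33 (Day 0 and Day 10) and -0.02 (Day 7 and Day 10). Results with the replicate block hold only if they do. With the replicate block, Nanog was called lower on Day 7 (adjusted p = 0.00211 by limma) and Day 10 (0.00522), and Utf1 higher on Day 10 than on Day 7 (0.00166); 4 members were lower on each later day, and 19 probesets were called in place of 13.

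Called probesets numbered 0 with an offset of 1, and their number also changed with single arrays left out. The shares of all probesets called under these settings and with the block are not given here. Directions turned only for differences that were not called. Sox2 on Day 10 against Day 0 was 0.26 by median polish, 0.0209 with the mean over probesets and 0.0433 after quantile normalization. Tcl1 on Day 7 was -0.17 after quantile normalization and -0.24 with centred arrays. With both replicates 2 left out, Day 10 against Day 7 was -0.44 for Nanog and -0.49 for Sox2. With single arrays left out, the differences ran for Sox2 from -0.73 to 0.0265 on Day 7 against Day 0, from -0.75 to 0.36 on Day 10 against Day 0 and from -0.40 to 0.71 on Day 10 against Day 7, for Tcl1 from -0.25 to 0.29 and from -0.12 to 0.43 against Day 0, and on Day 10 against Day 7 from -1.13 to 1.39 for Nanog and from -0.15 to 2.63 for Pou5f1. The cause of these shifts was not tested. Dppa4 gave a value only with no filter, and Dppa2 only with no filter and by median polish. By median polish Dppa2 was not called against Day 0 on Day 7 (-0.82, adjusted p = 0.183 by limma) or on Day 10 (-0.67, 0.27). Tcl1 was under the filter at the 50th percentile and gave no value there.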
